A study of Mus musculus with 7 samples.

Results

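The genes described here are the matrix metalloproteinases (Mmp), the Adam genes and the Adamts genes of the mouse. They were taken by symbol, as every protein-coding RefSeq gene on a placed chromosome whose name is Mmp, Adam or Adamts followed by a digit. This gave 76 of 21887 protein-coding genes, with 23 Mmp, 34 Adam and 19 Adamts genes. Each was placed against the 1437 lamin-associated domains (LADs) that the authors called in mouse embryonic fibroblasts, which are stretches of chromatin lying at the nuclear lamina, the protein mesh under the nuclear envelope. The study used CUT&RUN, which uses an antibody to bring a nuclease to its target on chromatin and sequences the fragments it frees. Its 7 libraries come from fibroblast lines of the name iMEF, derived independently within a single mouse colony, with no treatment named. Lamin B1 and the IgG control had 2 libraries each, H3K14ac had 1, and H3K9me2 had 1 with each of its 2 antibodies. The list used is the merged wild-type one on the build mm10, and its name gives the genotype. It holds positions without signal, so no value below has a replicate error, the read depth is unknown, and no expression was measured. For the same reason the identity of the cells could not be checked against fibroblast markers.

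Mmps are zinc-dependent endopeptidases that degrade collagens and other extracellular matrix proteins, and fibroblasts are a known source of several of them. Adams are membrane-anchored proteins with a metalloprotease and a disintegrin domain. Some shed growth factors and receptors from the cell surface, and many are made mainly in testis or epididymis and act in sperm. Several, among them Adam11, Adam22 and Adam23, are known to lack protease activity. Adamts enzymes are secreted, carry thrombospondin motifs, and process proteoglycans, procollagens and von Willebrand factor. Chromatin in LADs is in general poor in active genes, although a gene's position does not give its transcription.

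Because the Mmp cluster of chromosome 9 turned out to lie almost whole in a single domain, the sequences in front of its genes are shown first. They are the 110 bases before the RefSeq start (GRCm38.p6, the build of mm10) of each of the 6 cluster genes with a match to TGAGTCA, the classical binding sequence of AP-1 (Fos and Jun dimers), read on either strand, followed by a neighbour without one. Capitals mark this motif (TGACTCA where it is on the opposite strand) and the letters TATAAA, the core of a TATA box.
Mmp1a (chr9:7464031-7464140, plus strand): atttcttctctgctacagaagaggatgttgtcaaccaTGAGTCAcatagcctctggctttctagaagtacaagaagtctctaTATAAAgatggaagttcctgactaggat
Mmp1b (chr9:7388027-7388136, minus strand): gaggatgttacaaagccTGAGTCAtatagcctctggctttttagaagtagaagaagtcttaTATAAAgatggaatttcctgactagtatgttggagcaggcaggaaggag
Mmp13 (chr9:7272404-7272513, plus strand): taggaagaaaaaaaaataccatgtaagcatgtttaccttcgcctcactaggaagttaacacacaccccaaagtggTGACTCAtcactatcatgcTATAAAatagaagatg
Mmp3 (chr9:7445712-7445821, plus strand): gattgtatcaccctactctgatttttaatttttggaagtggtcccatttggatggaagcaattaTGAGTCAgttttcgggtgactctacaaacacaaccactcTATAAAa
Mmp10 (chr9:7502232-7502341, plus strand): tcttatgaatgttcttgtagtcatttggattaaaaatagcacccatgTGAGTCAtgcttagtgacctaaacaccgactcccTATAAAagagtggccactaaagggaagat
Mmp7 (chr9:7691980-7692089, plus strand): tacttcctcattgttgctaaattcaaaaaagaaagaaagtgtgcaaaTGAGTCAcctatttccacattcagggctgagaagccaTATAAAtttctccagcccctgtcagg
Mmp12 (chr9:7344287-7344396, plus strand): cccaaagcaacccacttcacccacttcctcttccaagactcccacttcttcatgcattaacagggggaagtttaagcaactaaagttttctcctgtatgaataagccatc
No match of one motif overlapped a match of the other in these windows. Mmp1a and Mmp1b, both listed here with the collagenases, had TGAGTCA beginning 73 and 93 bases before the start. In Mmp10 and Mmp7 it began 63 bases before the start, in Mmp3 46 bases, and in Mmp13 the opposite-strand match began 35 bases before. In the full RefSeq promoter windows of 300 bases (250 before to 50 after the start), 6 of the 10 cluster genes held the motif, and of the other Mmp genes with a window 0 of 8 did. The share among all 16985 protein-coding genes with such a window and a midpoint within a chromosome span was 4.6%. The 10 cluster genes are neighbours of the same family, so their windows are not independent. TATAAA on either strand was found in 8 of 10 cluster windows and in 13.5% of all. On the gene's own strand and beginning 35 to 25 bases before the start, where a TATA box usually lies, it was in 3 of 10 cluster windows and in 2.6% of all. In Mmp3, Mmp13, Mmp1b and Mmp20 the match on the gene's strand began 7, 16, 49 and 58 bases before the start, outside that range. All these distances rest on the RefSeq starts, which were not checked against measured starts. The GC box GGGCGG, searched on either strand of the full window, was in 0 of 10 cluster windows, in 6 of 8 windows of other Mmp genes and in 46.0% of all. Among genes with their midpoint in a LAD, TATAAA was in 25.1% of windows, GGGCGG in 19.1% and TGAGTCA in 6.2%. Outside LADs, where all 8 other Mmp genes with a window lay, the shares were 9.5%, 55.0% and 4.1% in that order. These matches describe the letters and are not evidence of binding.

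With the gene midpoint as its position, 31 of the 76 protease genes lay in a LAD (40.8%). The background was 24.6%, or 5207 of the 21130 protein-coding genes whose midpoint fell between the first and the last LAD of a chromosome, which includes all 76 protease genes. Without olfactory and vomeronasal receptor genes the background was 19.8%. Among the families, 11 of 23 Mmp genes (47.8%), 15 of 34 Adam genes (44.1%) and 5 of 19 Adamts genes (26.3%) were inside, so the Adamts share by midpoint was close to that of all genes. Counting only genes wholly covered gave 27 of 76 (35.5%, background 22.5%), and counting any overlap gave 33 of 76 (43.4%, background 26.0%). Genes in a cluster share a domain, and the 31 genes occupied 15 LADs. Of the 37 genes less than 500 kb from another of the set, 22 were inside (59.5%). Of the other 39 genes 9 were inside (23.1%), near the background of 24.6%. Chromosome 8 had 11 of its 17 genes of the set inside and chromosome 9 had 9 of 14. Over all protein-coding genes of these chromosomes the shares were 17.7% and 28.4%. When genes of the set less than 500 kb apart were counted once, at the first gene by coordinate, 14 of 50 positions were inside (28.0%). Mmp21 and Adam12 count as outside by this rule, although Adam12 was inside. All protein-coding genes were not counted in this way, so that share has no background. With only LADs of at least 500 kb the order turned, as 13 of the 76 genes (17.1%) were then inside against 21.5% of all genes, and none of the chromosome 9 cluster, whose LAD is shorter.

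**Figure D1:**
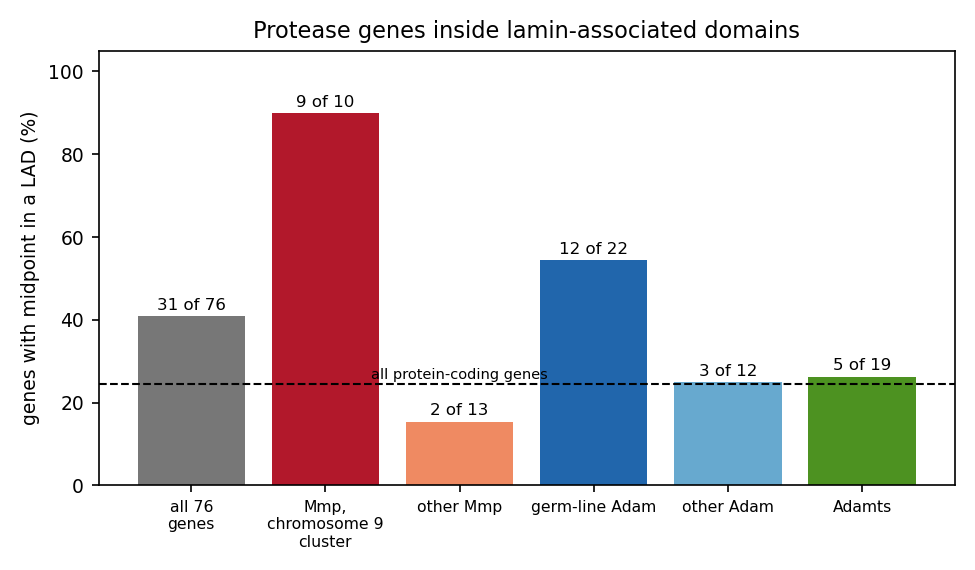
Bars give the percentage of genes with their midpoint in a LAD, with counts above them, for all 76 genes and for 5 groups, and the dashed line marks the 24.6% of all protein-coding genes. The chromosome 9 Mmp cluster (9 of 10) and the germ-line Adam genes (12 of 22) stand above the line, the other Adam and the Adamts genes lie next to it, and the remaining Mmp genes (2 of 13) lie below it.

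The Mmp genes inside were mostly from 1 locus. The cluster on chromosome 9 holds 10 Mmp genes between 7272514 and 7699585 (mm10), a stretch of 427.1 kb of which 95.4% was covered by a LAD from 7274062 to 7681560. This domain measured 407.5 kb, and its 9 protein-coding genes were all Mmps. Outside the cluster, 2 of 13 Mmp genes (15.4%) were in a LAD, against the background of 24.6%.

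In the map of this region, read in chromosomal order, the cluster opened with Mmp13 (7272514 to 7283333), collagenase-3, which the low-coordinate LAD border crossed. Of Mmp13, 85.7% was in the LAD and its midpoint was 3.9 kb inside, while its transcription start lay 1.55 kb outside. The lengths of all LADs were multiples of 2.5 kb to within 36 bp, so the start of Mmp13 cannot be assigned to either side at this resolution. Mmp12 (7344397 to 7360461), the macrophage elastase, followed at a depth of 78.4 kb from the nearest border. Mmp1b (7367670 to 7388026) was 103.8 kb deep. Both were wholly inside.

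The middle of the domain was taken by the stromelysins and an interstitial collagenase. Mmp3 (7445822 to 7455975), stromelysin-1, was 176.8 kb from the border, and Mmp1a (7464141 to 7476869) was the deepest gene at 196.4 kb. Mmp10 (7502342 to 7510242), stromelysin-2, was 175.3 kb deep. All 3 thus had similar depths and none was near an edge.

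Towards the high-coordinate side the depths became smaller. Mmp8 (7558429 to 7568486), the neutrophil collagenase, was 118.1 kb from the border and Mmp27 (7571396 to 7581885) was 104.9 kb from it. Mmp20 (7628231 to 7674968), the enamel protease enamelysin, was wholly inside and ended 6.59 kb before the border. The last gene, Mmp7 (7692090 to 7699585), matrilysin, was the only one outside. Its start was 10.53 kb and its midpoint 14.3 kb beyond the border, and 17.1 kb separated it from Mmp20.

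**Figure D2:**
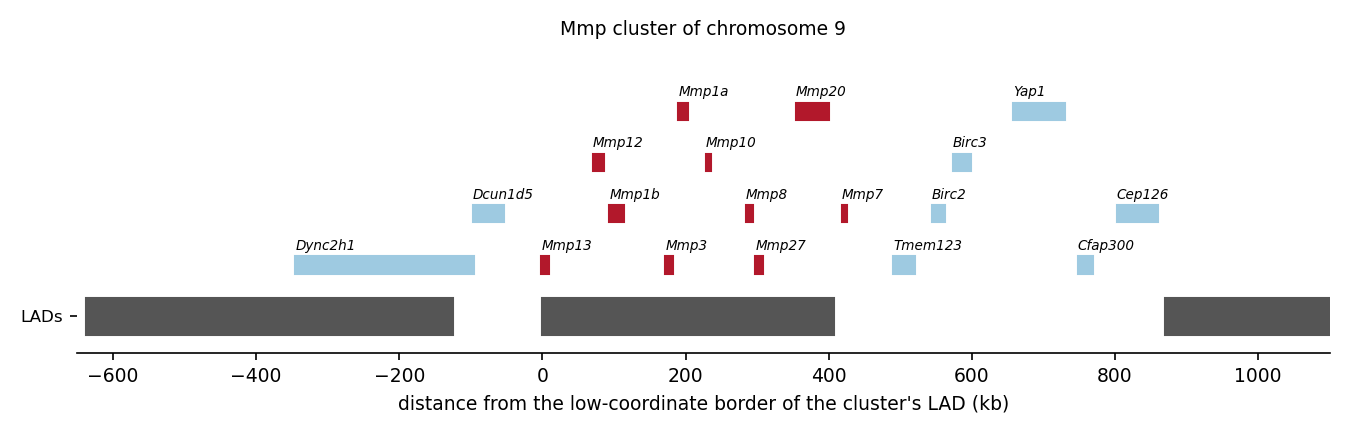
Genes (red for Mmp, blue for other protein-coding genes) and LADs (grey) around the chromosome 9 cluster, with the horizontal axis in kb from the low-coordinate border of the LAD that holds 9 Mmp genes. The LAD ends between Mmp20 and Mmp7 on one side and at Mmp13 on the other, and the apoptosis inhibitors Birc2 and Birc3 and the Hippo co-activator Yap1 lie in the gap beyond Mmp7.

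On the low side, the gap next to the cluster measured 125.0 kb and held Dcun1d5. The next LAD was 512.5 kb long, with the midpoint of Dync2h1, a dynein heavy chain gene of cilia, 95.6 kb inside. On the high side the gap was 462.5 kb long and held 7 protein-coding genes, of which Mmp7 was the first, followed by Tmem123, Birc2, Birc3, Yap1, Cfap300 and Cep126. Beyond it, a LAD of 865.0 kb held Trpc6 and the progesterone receptor gene Pgr. The border on this side therefore fell between members of 1 family, and no border fell between the 9 genes from Mmp13 to Mmp20.

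Away from the cluster, Mmp2 and Mmp16 were inside a LAD, and the 11 other Mmp genes were 65.0 to 3118 kb outside, with a median of 622.1 kb against 759.6 kb for all protein-coding genes outside. Mmp2 (chromosome 8, 92827290 to 92853421), gelatinase A, was wholly inside a LAD of 1110 kb (92687915 to 93797910) at a depth of 152.4 kb. The same domain held 12 other protein-coding genes, among them the noradrenaline transporter gene Slc6a2 and the carboxylesterase genes Ces1a to Ces1h. Mmp14, the membrane-type protease known to activate the Mmp2 proenzyme at the cell surface, was 938.4 kb outside (chromosome 14, 54431598 to 54442456), in a gap of 4.64 Mb. Mmp9, gelatinase B, was 2071 kb outside, so the gelatinases were on opposite sides.

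Of the 6 membrane-type Mmp genes, Mmp16 alone had its midpoint in a LAD (16.7%, background 24.6%). It spans 264.4 kb of chromosome 4 (17853072 to 18117479) and 78.1% of it was covered, with 57.8 kb at its low-coordinate end outside. The others, Mmp14, Mmp15, Mmp17, Mmp24 and Mmp25, were between 102.8 and 3118 kb outside. Mmp24 had the largest distance of all Mmp genes and lay in a gap of 7.44 Mb on chromosome 2. All 4 genes listed as collagenases (Mmp1a, Mmp1b, Mmp8 and Mmp13) and 2 of 3 stromelysin genes were inside, beside 24.6% of all protein-coding genes. Each of them lay in the chromosome 9 domain, so they are not separate positions. The remaining stromelysin gene, Mmp11 on chromosome 10, was 1090 kb outside. Mmp19, Mmp21, Mmp23 and Mmp28 were also outside, at 65.0 to 635.3 kb.

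**Figure D3:**
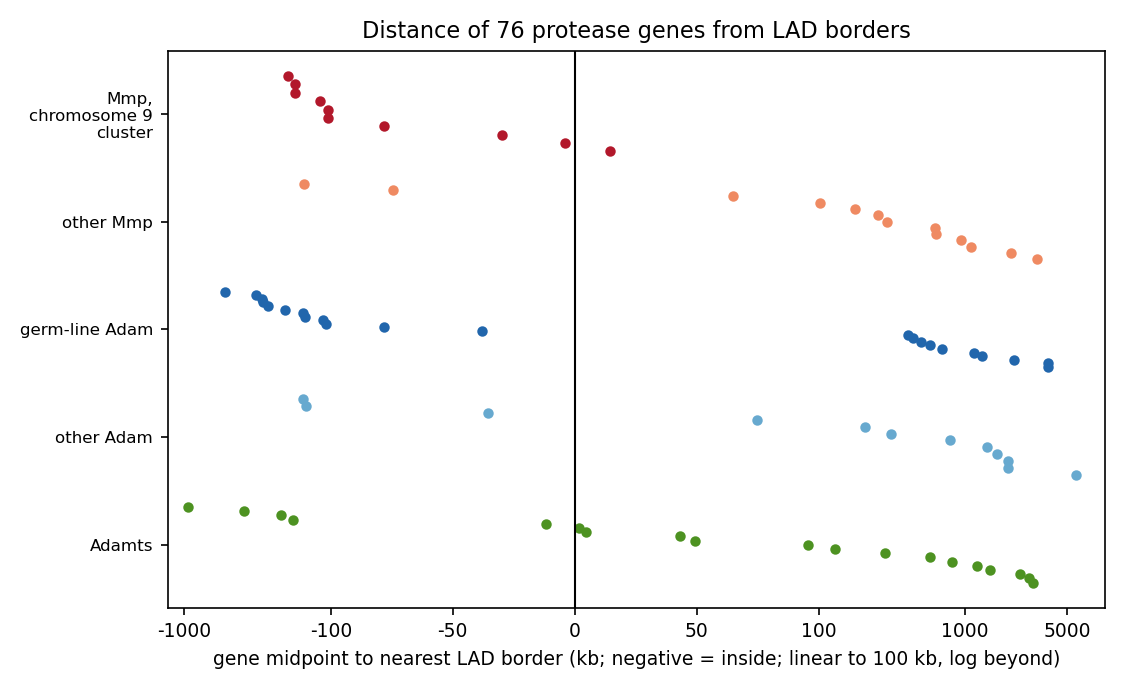
Each point is a gene, placed by the distance of its midpoint from the nearest LAD border in kb (negative inside a LAD; the axis is linear to 100 kb and logarithmic beyond), in 5 groups. The cluster Mmps reach from 196.4 kb inside to 14.3 kb outside, and germ-line Adams split into a group inside and one at 408.4 kb or more outside, with none in between.

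The Adam genes were grouped by the tissue in which they are known to act. Of 22 Adam genes known mainly from testis or epididymis, 12 were in LADs (54.5%). Of the 12 other Adam genes 3 were, by midpoint a share next to the background of 24.6%. Wholly covered were 2 of the 12 others (16.7%, background 22.5%). By the 5' end 1 of the 7 others with a window was inside (14.3%, background 24.6%). All 12 germ-line genes inside were wholly inside, at depths of 38.1 to 531.6 kb, and the 10 outside were 408.4 to 3703 kb from a border. LAD borders crossed 0 of the 22 germ-line Adam genes, whose median length was 8.4 kb, and 3.47% of all protein-coding genes. The 12 genes inside shared 5 LADs and the 10 outside shared 5 gaps, so the counts hold fewer separate positions than genes. In LADs of at least 500 kb, 7 of the 22 germ-line genes (31.8%) and 0 of the 12 others were inside, against 21.5% of all protein-coding genes.

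These genes were inside or outside as whole clusters. On chromosome 8, a LAD of 262.5 kb (40640580 to 40903078) held Adam24, Adam25, Adam20 and Adam39, with the amino acid transporter gene Slc7a2 as the only other protein-coding gene with its midpoint there. Their depths were 38.1, 113.6, 107.8 and 78.1 kb in that order. Farther along the chromosome, a LAD of 620.0 kb (43368071 to 43988068) held Adam26b, Adam26a, Adam34l and Adam34, at depths of 155.9 to 296.1 kb. Adam34 lies within the span of Adam34l, so these are not independent positions. Adam29 (chromosome 8, 55870912 to 55906964) was the deepest Adam gene, 531.6 kb inside a LAD of 1095 kb.

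A further Adam cluster of chromosome 8 was entirely outside. Adam18, Adam3, Adam5 and Adam32, whose products are known from sperm, adjoin Adam9, a broadly expressed sheddase gene, between 24602246 and 25017040. All 5 lay in a gap of 3.21 Mb, at 437.9 kb (Adam18) to 782.7 kb (Adam9) from the nearest border. Adam genes known from sperm were thus found on both sides. Adam2, which encodes fertilin beta, was 2161 kb outside, and the neighbours Adam1a and Adam1b were 3703 and 3685 kb outside. Adam4, Adam21 and Adam30 were also outside, at 408.4 to 1297 kb.

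On chromosome 12, Adam6a and Adam6b were inside a LAD of 2.95 Mb (113222386 to 116169876), at 322.8 and 268.3 kb from its border. Adam7, an epididymal gene, shared a LAD of 452.5 kb on chromosome 14 (68213606 to 68666103) with Adam28, known from lymphocytes, and with Adamdec1, a related gene outside the naming rule. Adam7 was 150.6 kb and Adam28 35.7 kb inside. That domain held no other protein-coding gene.

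**Figure D4:**
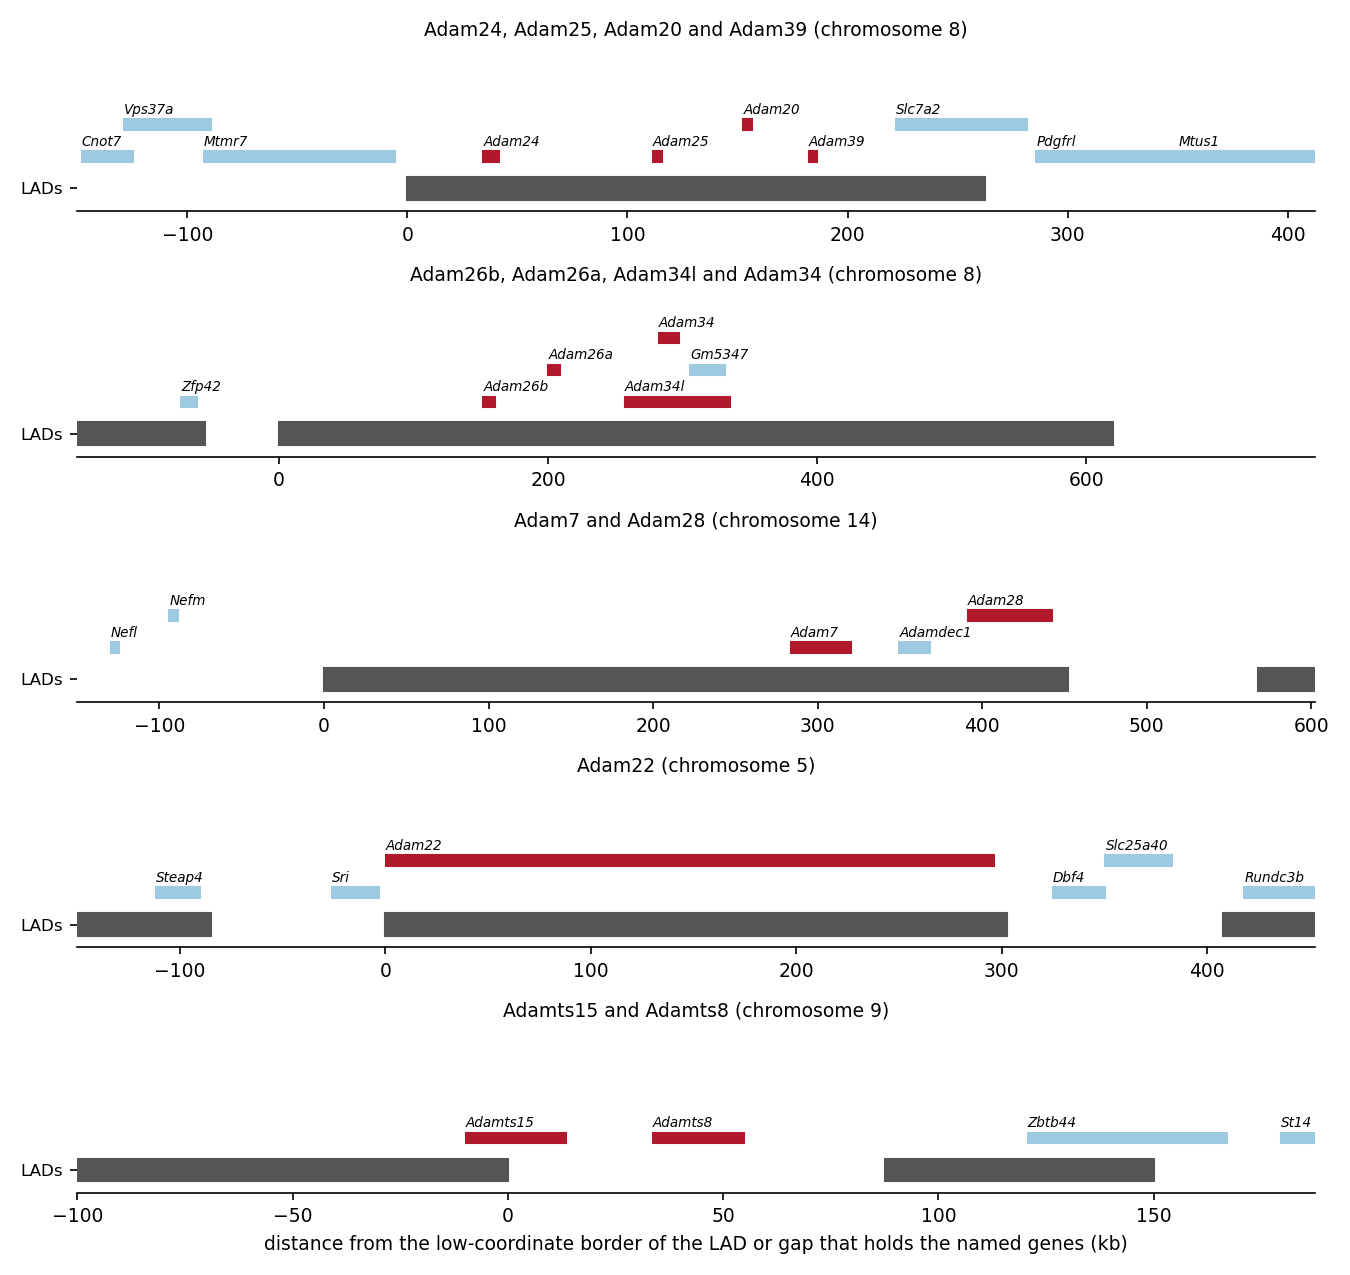
Genes (red for Adam and Adamts genes of the set, blue for other protein-coding genes) and LADs (grey) at 5 loci, with each horizontal axis in kb from the low-coordinate border of the LAD, or in the lowest panel of the gap, that holds the named genes. The top 3 panels show Adam clusters inside LADs, the fourth a LAD filled to 97.8% by Adam22, and the last a gap of 87.5 kb with Adamts15 and Adamts8.

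Besides Adam28, the other Adam genes inside were Adam22 and Adam12. Adam22, a non-catalytic receptor of the neuronal ligand Lgi1, spans 296.0 kb of chromosome 5 (8072347 to 8368312) and nearly coincided with its LAD (8072287 to 8374785). It ended 0.06 kb from the low-coordinate and 6.47 kb from the high-coordinate border, the former less than the 2.5 kb resolution, and no other protein-coding gene had its midpoint in that domain. Of the 1437 LADs, 2 were filled to at least 95% by a single gene lying wholly inside by the listed coordinates, the other by Osbpl10, which is not in the set. Lgi1, the gene of the Adam22 ligand, was 744.2 kb outside.

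Adam12 (chromosome 7, 133883199 to 134225097), a sheddase of muscle and mesenchyme, was covered to 95.5% by a LAD of 387.5 kb, with 15.39 kb at its high-coordinate end outside. It filled 84.3% of that domain, and Mmp21 lay in the gap of 210.0 kb next to it. The main ectodomain sheddases were outside, Adam10 by 1661 kb and Adam17 by 314.1 kb. The remaining ones were 74.9 kb (Adam8) to 5699 kb (Adam11) outside, and Adam11 was the farthest of all 76 genes, in a gap of 14.6 Mb (chromosome 11, 102761413 to 102780263). Adam33 and the non-catalytic Adam23 were 1950 and 1969 kb outside.

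By midpoint, 5 of 19 Adamts genes were inside (26.3%, background 24.6%). Counting any overlap gave 7 of 19 (36.8%, background 26.0%), and joining LADs at most 250 kb apart gave 8 of 19 (42.1%, background 28.3%). Of the procollagen N-propeptidases, Adamts3 (chromosome 5, 89673841 to 89883668) was wholly inside a LAD of 1370 kb at 393.3 kb from the border, whereas Adamts2 and Adamts14 were 1212 and 2366 kb outside. Adamts18 (chromosome 8, 113697123 to 113849343) was 219.6 kb inside a LAD of 1895 kb. Adamts19 was the deepest of the 76 genes, at 941.0 kb. Adamts20 (chromosome 15, 94268314 to 94432074), a proteoglycan-cleaving enzyme known from pigment cell development, was 180.7 kb inside a LAD of 890.0 kb that held no other protein-coding gene.

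Of the 7 proteoglycan-cleaving Adamts genes, Adamts20 alone had its midpoint inside (14.3%, background 24.6%). The other 6 were 1.8 to 283.3 kb outside, in 4 gaps, with a median of 72.5 kb. The median was 759.6 kb for all protein-coding genes outside LADs. Adamts15 and Adamts8, which are 20.1 kb apart on chromosome 9, were the only protein-coding genes with a midpoint in a gap of 87.5 kb (30908988 to 30996486). Adamts15 (30899155 to 30922452) was crossed by the border, with 42.2% in the LAD and its midpoint 1.8 kb outside, which is within the 2.5 kb resolution. The aggrecanase gene Adamts5 and its neighbour Adamts1 were likewise alone in a gap of 745.0 kb on chromosome 16, at 130.2 and 49.1 kb from the border. Adamts9 was at the far end of a gap of 10.4 Mb on chromosome 6, and its high-coordinate end was 9.9 kb from the LAD. Adamts4 was 283.3 kb outside.

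Of the remaining Adamts genes, Adamts16 and Adamts7 were crossed by borders. Adamts16 (chromosome 13, 70727798 to 70841845) was the only gene with its midpoint in a LAD of 322.5 kb and was covered to 60.3%. Adamts7 (chromosome 9, 90162904 to 90200102), a cartilage oligomeric matrix protein (COMP)-cleaving enzyme, had 37.1% in a LAD and its midpoint 4.8 kb outside. The other COMP-cleaving gene, Adamts12, was 810.9 kb outside. Adamts13, the von Willebrand factor protease, was 2722 kb outside, and Adamts6, Adamts17 and Adamts10 were 573.9, 1483 and 2930 kb outside. In all, borders crossed 6 of the 76 genes (7.89%), namely Mmp13, Mmp16, Adam12, Adamts7, Adamts15 and Adamts16, against 3.47% of all protein-coding genes. The median length was 75.6 kb for these 6, 22.1 kb for the 76 genes and 17.4 kb for all protein-coding genes.

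The sizes of the domains differed between a count of genes and a count of domains. Of the 31 genes inside, 18 (58.1%) were in LADs under 500 kb, and 9 of those are the Mmp genes of the single chromosome 9 domain. Of all 5207 protein-coding genes in LADs, 666 (12.8%) were in LADs of that size. Counted once each, the 15 domains ranged from 262.5 kb to 3785 kb with 6 under 500 kb and a median of 890.0 kb. The median of all LADs was 445.0 kb, but 950 of the 1437 held the midpoint of any protein-coding gene, and choosing domains by a gene they hold favours long ones. The median depth of the genes inside was 152.4 kb, against 307.7 kb for all protein-coding genes inside LADs and 247.5 kb without olfactory and vomeronasal receptor genes. In 4 of the 15 domains, those of the Mmp cluster, Adam22, Adamts16 and Adamts20, no protein-coding gene outside the set had its midpoint.

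Promoter composition and gene length were examined next, for the 46 genes of the set with a RefSeq window (30 had none). The ratio of observed to expected CpG dinucleotides had a median of 0.08 in the 21 genes inside LADs and 0.61 in the 25 outside. Over all protein-coding genes the medians were 0.20 in 4278 genes inside and 0.69 in 12707 outside, so the protease genes as a whole differed in the direction of genes at large. The Adamts genes went the other way, with a median of 0.91 in 3 genes inside and 0.68 in 7 outside. The 10 cluster Mmps had ratios from 0.00 to 0.27, and Mmp7, outside the LAD, had 0.09, within the range of the 9 inside. Mmp14 had 0.43 and Mmp24 0.92.

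The genes inside with ratios above 0.27 were long ones. Adamts20 had a ratio of 0.92 and a length of 163.8 kb, Adamts3 0.91 and 209.8 kb, and Adamts18 0.71 and 152.2 kb. Adam22 followed with 0.58 and 296.0 kb. The Adamts20 window belongs to a start within the gene, at -27724 bases from its outer end, so its ratio does not describe that end. All 3 Adamts genes were wholly inside their domains, whereas the low-coordinate end of Adam22 was nearer to the border than the 2.5 kb resolution. The median length of the Adamts genes was 163.8 kb inside (5 genes) and 40.1 kb outside (14 genes), although the longest, Adamts17 (313.5 kb) and Adamts12 (284.5 kb), were outside. Germ-line Adams had medians of 7.7 kb inside and 29.5 kb outside. The genes inside LADs had a median of 8 other protein-coding genes within 500 kb, and those outside had 14, beside 12 and 16 for all protein-coding genes. Without olfactory and vomeronasal receptor genes the latter were 8 and 15, close to the values of the protease genes.

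**Figure D5:**
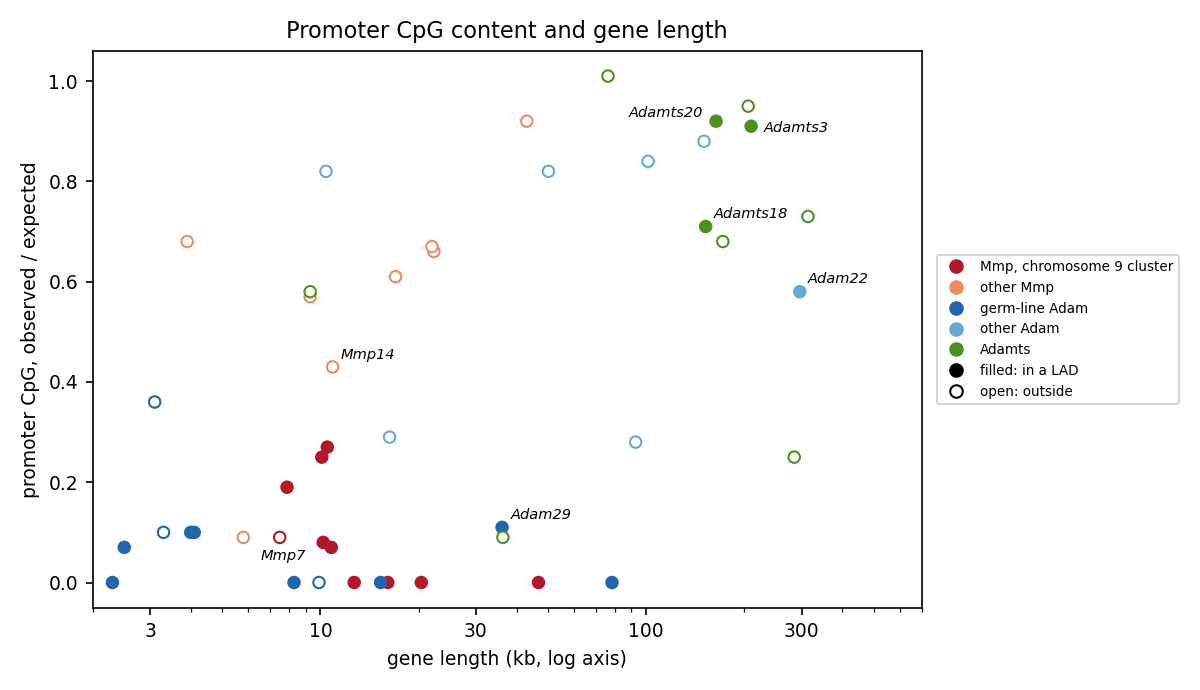
Observed over expected CpG in the 300-base promoter window against gene length (kb, log axis) for the 46 genes with a RefSeq window, coloured by group, with filled points inside LADs and open points outside. Filled points form a set of genes of at most 78.5 kb with ratios up to 0.27, all Mmp or germ-line Adam genes, and a set of 4 long genes with ratios from 0.58 to 0.92.

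Genes known to act with these proteases were placed in the same way. Of 54 listed inhibitors, Adamts-like genes, activators, partners and substrates, 52 lay within chromosome spans and 7 of these had their midpoint in a LAD, where the share over all protein-coding genes was 24.6% and 19.8% without the receptor genes. Among inhibitors, 1 of 6 within chromosome spans was inside, the broad protease inhibitor A2m at 278.4 kb, while the tissue inhibitors Timp1, Timp3 and Timp4 were 251.8 to 1238 kb outside and Reck 1697 kb. Timp2 lay beyond the last LAD of chromosome 11. Among 7 Adamts-like and related genes, Adamtsl1 and Adamdec1 were inside, and among 12 activators and partners 1 was, the proprotein convertase gene Pcsk5. Furin, which activates Adam and membrane-type Mmp proenzymes, was 1685 kb outside.

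Of 27 substrate genes 3 were inside (11.1%, background 24.6%), namely the amyloid precursor gene App at 187.1 kb and the enamel matrix genes Amelx and Enam at 84.6 and 37.5 kb. The proteoglycan substrates Acan, Bcan, Ncan and Vcan were outside, at 153.9 kb (Vcan) to 2754 kb (Bcan), as were the fibrillar collagen genes Col1a1, Col1a2, Col2a1 and Col3a1. Mmp20, which cleaves amelogenin and enamelin, was thus inside together with both of these substrate genes, although on other chromosomes. Klk4, the protease of later enamel maturation, was 631.0 kb outside. This enamel group was chosen after its values were seen.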

How the data were processed

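CUT&RUN was performed on Lamin B1, IgG, H3K9me2 and H3K14ac. Only the merged LAD list, read as the pooled Lamin B1 result, was used. The deposited values are start and end positions, and the deposited score column held 0 in all 1437 lines. Bowtie2 and mm10 are named in the submitters' processing notes. The LAD caller, its thresholds and the use of IgG or spike-in DNA are not given in the sources used here. The shortest gap between LADs was 52.5 kb. A caller's joining of nearer domains would affect whether a gene in a short gap counts as inside.

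Genes came from the RefSeq table of GRCm38.p6. A gene was inside if its midpoint was, and distances run from the midpoint to the nearest border. Of the 21887 protein-coding genes, 757 had a midpoint beyond the LADs of their chromosome and were left out of the background. Promoter windows gave strand and start for 46 of the 76 genes, taking the window nearest to the gene's outer end. Placement was tested on 9979 simulated points, all placed right, and 0 of 21887 genes differed from bedtools 2.31.1. Python 3.11.15, pandas 2.3.3 and numpy 2.4.6 were used.

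The genes, lists and rules were chosen with earlier results of these data known, the germ-line list from general knowledge. No test was run, because the list has no values per library. The background is the share over all protein-coding genes; neighbours counted once have none. Named were all genes of the chromosome 9 cluster with its neighbours, genes inside LADs or crossed by a border, genes within 500 kb of each other, the 3 farthest from any LAD, and the nearest and farthest of each subgroup, with others of the set added after their values were seen. Alternatives changed the position that places a gene, the overlap required, the LAD length, the joining of LADs, the borders and the unit counted.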

Additional observations from a re-analysis of the deposited data

How the results depend on the processing

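Of 87 values recomputed under 12 alternatives, 78 stayed inside the 95% interval of their main value (a Wilson interval for shares, an order-statistic interval for the median distance) or, for the count in the Mmp cluster, within 1.5 times, and 9 moved. Those intervals treat genes as independent, which clustered genes are not, and serve only to sort the alternatives. With only LADs of at least 500 kb, the share inside was 17.1% for all 76 genes, 8.7% for Mmp, 20.6% for Adam, 31.8% for germ-line Adam and 0.0% for other Adam genes, against 21.5% of all protein-coding genes. Under that setting 0 genes of the chromosome 9 cluster were inside, and the median distance from the border went from 85.3 to 537.5 kb outside. This follows from the alternative itself, which drops the 6 domains under 500 kb. With genes of the set less than 500 kb apart counted once, at the first by coordinate, the shares were 28.0% for all and 21.4% for Mmp, with no background counted likewise.

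The 18 genes lost with the length limit were the 9 cluster Mmps, Adamts16, Adam7, Adam28, Adam22, Adam12, Adam24, Adam25, Adam20 and Adam39. Moving each border by 10 kb changed only Mmp13 (lost when LADs were shortened) and Adamts15 and Adamts7 (gained when they were lengthened). Joining LADs at 100 kb added Adamts15 and Adamts8, and at 250 kb also Mmp21, Adam8 and Adamts7, giving 36 of 76 genes (47.4%) against 28.3% of all. The Lamin B1 libraries could not be left out in turn, since the list is merged. No paired analysis was possible because the list holds no values per library.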
